A study of Homo sapiens with 3 samples.

Results

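The 8 genes described here are NTS, PCSK1, PCSK2, NPTX1, GAP43, SYT1, NCALD and DOK5, a set of neuropeptide and synaptic genes among the 24424 genes counted in A375SM melanoma cells. They were taken from the count table by gene symbol, and all 8 have a row there. The set was chosen with their counts in these libraries already known, so the values below describe the genes and test nothing. A375SM is a metastatic derivative of the human melanoma line A375. The 3 groups were stable populations made with lentiviral vectors that also carry a green fluorescent protein, and cells positive for that reporter were kept. The shPRAME population carries a short hairpin RNA against PRAME, the shBAP1 population a hairpin against BAP1, and the shEmpty population is the control. The control is named a non-targeting hairpin in the series' design and wild type in its genotype label. Each group is 1 population and 1 library of messenger RNA. No difference between groups has a replicate check, no p-value was computed, and what comes from lowering a target cannot be told apart from side effects of its 1 hairpin. The comparisons ask which transcripts differ between each knockdown library and the control.

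Peptide hormones and neuropeptides are made as long precursors that are cut in the secretory pathway. The prohormone convertases PCSK1 and PCSK2 cut after pairs of basic residues, carboxypeptidase E trims the ends, and the finished peptide is stored in dense-core granules until calcium triggers release. NTS encodes the precursor of neurotensin and neuromedin N, peptides of brain and gut that act through the receptor NTSR1. The other genes belong to the neuronal side of the same biology. SYT1 is the calcium sensor of vesicle release, GAP43 a growth cone protein, NPTX1 a secreted pentraxin that clusters glutamate receptors, NCALD a calcium sensor of neurons, and DOK5 an adaptor that docks on receptor kinases such as RET. Melanocytes arise from the neural crest, as do sensory neurons and adrenal chromaffin cells.

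The link between NTS and the convertases can be read from the precursor's coding sequence. The last 90 coding bases lie in exon 4 of NTS on GRCh38, chr12:85882283-85882372, plus strand, from codon 141 to codon 170 of the GENCODE 29 transcript. Capitals mark each in-frame lysine codon followed by an arginine codon, and all 3 such pairs of the coding sequence fall in this stretch.
NTS, codons 141 to 170: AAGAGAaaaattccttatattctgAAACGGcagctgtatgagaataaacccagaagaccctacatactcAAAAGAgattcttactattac
Neuromedin N is encoded between the pairs at codons 141 and 149, and neurotensin between those at codons 149 and 164. Cleavage of the precursor was not measured.

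RefSeq start-site windows on GRCh38.p14 were found for 6 of the 8 genes. The 250 bases before the start are shown for NTS and for 1 window of each convertase, because these 3 genes form the precursor and enzyme group and their windows differ in composition. Capitals mark the letters TGACNTCA, which cover the cyclic AMP response element and its variant with another middle base, and the GC box GGGCGG, each searched on both strands. In the PCSK2 window the first and second GC boxes adjoin and read as 1 run.
NTS, chr12:85874045-85874294, plus strand: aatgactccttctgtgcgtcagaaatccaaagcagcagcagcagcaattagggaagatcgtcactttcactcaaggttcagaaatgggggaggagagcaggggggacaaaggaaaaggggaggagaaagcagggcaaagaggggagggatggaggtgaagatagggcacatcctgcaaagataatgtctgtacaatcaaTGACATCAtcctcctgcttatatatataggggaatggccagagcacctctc
PCSK1, chr5:96433249-96433498, minus strand: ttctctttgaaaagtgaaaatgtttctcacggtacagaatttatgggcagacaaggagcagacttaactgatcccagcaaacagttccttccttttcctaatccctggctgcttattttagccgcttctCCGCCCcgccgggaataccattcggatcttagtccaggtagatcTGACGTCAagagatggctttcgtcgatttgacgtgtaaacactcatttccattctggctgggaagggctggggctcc
PCSK2, chr20:17226790-17227039, plus strand: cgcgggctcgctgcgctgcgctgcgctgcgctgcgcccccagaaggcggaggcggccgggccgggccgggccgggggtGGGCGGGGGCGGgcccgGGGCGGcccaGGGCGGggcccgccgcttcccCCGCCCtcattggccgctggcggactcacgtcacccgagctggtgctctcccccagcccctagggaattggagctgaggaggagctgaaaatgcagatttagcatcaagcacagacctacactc
The TGACNTCA letters stand 51 to 44 bases before the NTS start and 77 to 70 bases before the PCSK1 start shown, and not in the window of the other PCSK1 start. Of 34788 distinct windows of this length, 6.84% hold TGACNTCA, and 1.64% hold the palindrome TGACGTCA that the PCSK1 window has. The windows of PCSK2, GAP43, SYT1 and DOK5 did not hold these letters. The NTS window has 2 CpG dinucleotides and the PCSK2 window printed here has 26, beside a median of 11 over all windows. GAP43 has 7, PCSK1 10 at each of its start sites, SYT1 13, DOK5 19 and the other PCSK2 start 22. GC boxes are in 42.6% of windows, and the PCSK2 window has 5. The AP-1 letters TGANTCA (6.59% of windows) and the E-box CACGTG (6.31%) were in no window of the 6 genes. The TATA box letters TATAAA (10.8%) were only in the other PCSK1 window. Other forms of the TATA box were not searched, and the NTS window has the letters tatatata shortly before its start. Which start site these cells used is not known from gene counts, and a match of letters is a description of the reference sequence.

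**Figure D1:**
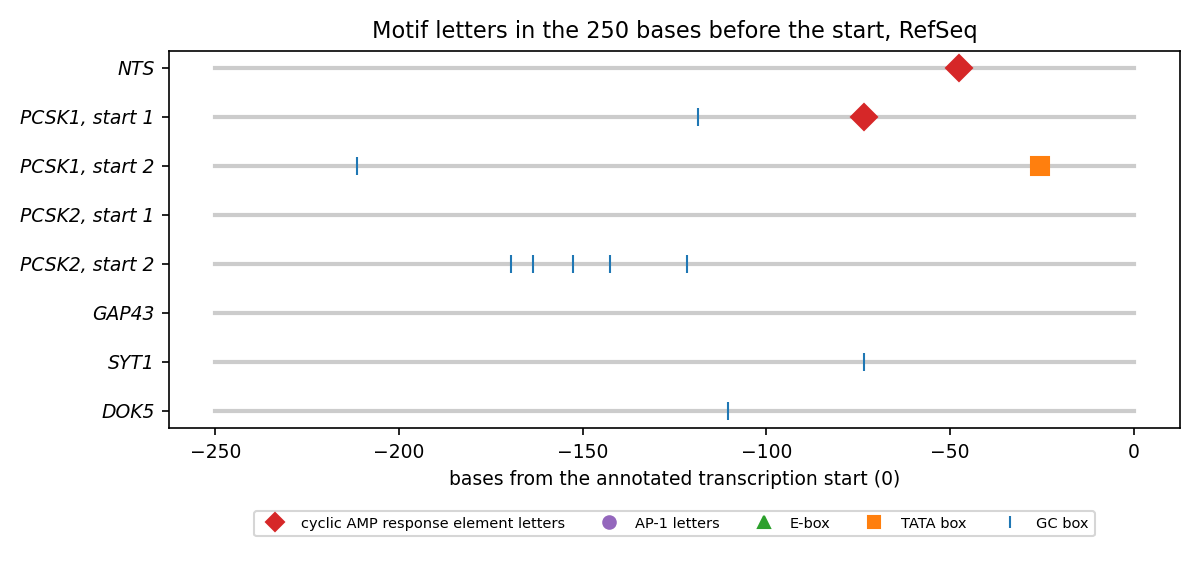
Motif letters in the 250 bases before each annotated start of the 6 members with a RefSeq window, plotted by distance from the start in bases. NTS and the first PCSK1 start each have a diamond for TGACNTCA, and the second PCSK2 start has 5 GC boxes.

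Total counts per library were 14181829 to 19430130, and 17386 to 17980 genes had a count. Levels are CPM, counts divided by library size after TMM, a correction for library composition, with exact 95% Poisson intervals. A count of 0 allows up to 3 counts, the floor against which folds written as at least are point ratios, or 0.160 CPM in shEmpty, 0.202 in shBAP1 and 0.164 in shPRAME, and intervals and floors cover counting error only. A gene was measured where its mean count was at least 50. It was called higher or lower where the ratio was at least 2-fold and its exact 95% counting interval excluded a ratio of 1. PRAME stood at 32.9% of the control in shPRAME and BAP1 at 35.2% in shBAP1. The melanoma markers SOX10 (5442 to 12019 counts) and MITF (2088 to 5807 counts) were present in each library, whereas MLANA had 3 to 19 counts, and the 12 markers of that list summed to 2503 CPM in shEmpty, 1649 in shBAP1 and 4476 in shPRAME. Of the 10 measured, 2 were higher and 2 lower in shPRAME, where 10.2% of all measured genes were higher and 9.08% lower. In shBAP1 4 were higher and 2 lower, where the shares were 5.53% higher and 8.56% lower. MITF (log2 -1.44) and DCT (-4.96) were lower in shPRAME, CSPG4 (1.26) and S100A1 (1.05) higher, and the pigment enzyme genes TYRP1, TYR and DCT, with 1037, 573 and 1668 counts in shBAP1, were higher there.

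The members did not move as a block. In shPRAME, NTS, GAP43, SYT1, NCALD and DOK5 were higher than in shEmpty, and PCSK2 and NPTX1 were lower. That is 7 of the 7 measured members, in a comparison in which 19.3% of all 11956 measured genes were called (10.2% higher and 9.08% lower). In shBAP1, NCALD was higher, PCSK2, NPTX1, GAP43 and SYT1 were lower, and NTS and DOK5 were neither, where 14.1% of measured genes were called (5.53% higher and 8.56% lower, a split of 39.2% higher among the calls that became 49.8% with total-count scaling). PCSK1 fell below the count minimum in every comparison. Since the genes were selected on these values, the counts are given beside the shares of all genes and nothing is read from them. The counts of called genes in the families and marker lists below are to be set against these same shares. The shares are not repeated for every list.

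**Figure D2:**
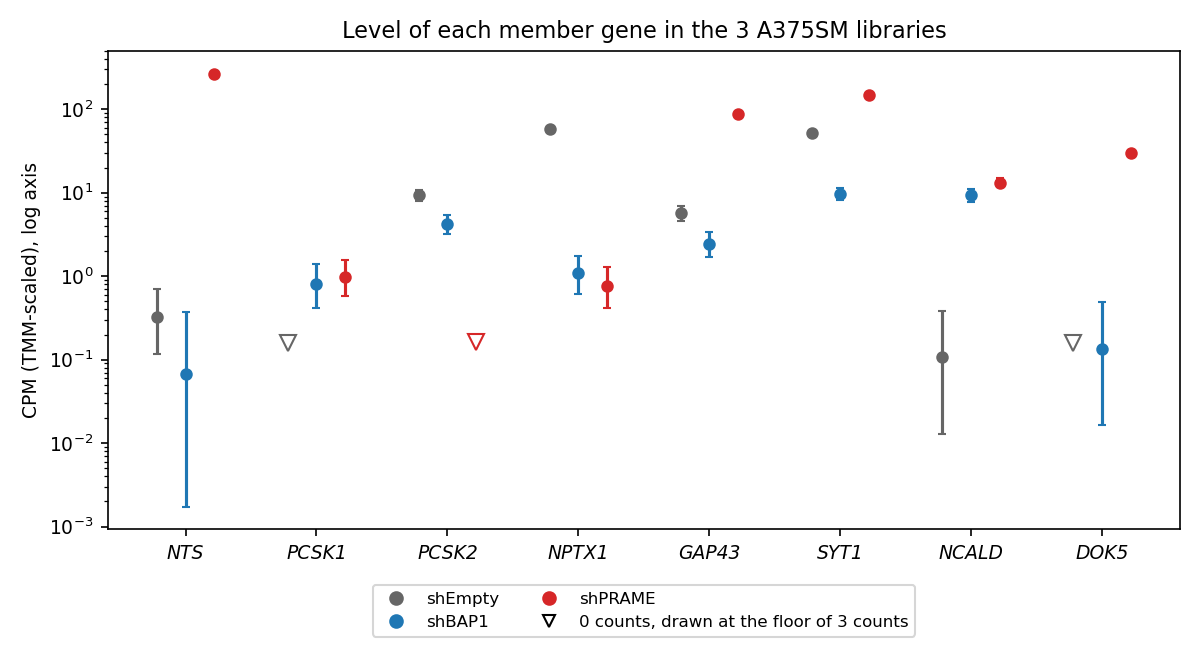
Level of each member in the 3 libraries in CPM on a log axis, with exact 95% Poisson intervals; open triangles are counts of 0 drawn at the floor of 3 counts. NTS spans 0.0674 CPM (shBAP1) to 268 CPM (shPRAME), and NPTX1 is high in shEmpty alone at 57.9 CPM.

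NTS (chromosome 12) was all but silent outside shPRAME. It had 6 counts in shEmpty, 1 in shBAP1 and 4902 in shPRAME. Its levels were 0.320 CPM (0.118 to 0.697), 0.0674 CPM (0.00171 to 0.375) and 268 CPM (261 to 276) in that order. The shPRAME library stands apart from both others, and the intervals of shEmpty and shBAP1 overlap. NTS was 837-fold higher in shPRAME than in shEmpty (384 to 2283). Its count in shPRAME exceeded that of 97.4% of the genes in the table. Against shEmpty, the 1 count of shBAP1 gives a ratio of 4.75-fold downward with an interval from 0.577 to 219, which does not settle a direction.

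The receptors of neurotensin were at very different levels. NTSR1, the G-protein-coupled receptor that carries most neurotensin signalling, had 3 counts in shEmpty, 8 in shBAP1 and 48 in shPRAME. The ratio of shPRAME to shEmpty was 16.4-fold upward (5.28 to 82.3), below the count minimum. NTSR2 had no count in any library. SORT1, the sorting receptor sortilin, had 1107, 2059 and 776 counts, and it was 2.35-fold higher in shBAP1 (2.18 to 2.53) and neither higher nor lower by the 2-fold rule in shPRAME. The G-protein-coupled receptor therefore had most counts in the library with most NTS, and the sorting receptor had fewest there.

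Of the convertases, PCSK2 had no count in shPRAME and PCSK1 none in shEmpty, and shBAP1 held both. PCSK2 (chromosome 20), the convertase that dominates in neurons and pancreatic alpha cells, had 176 counts in shEmpty, 62 in shBAP1 and 0 in shPRAME. These are 9.39 CPM (8.06 to 10.9), 4.18 CPM (3.20 to 5.35) and 0, which allows up to 0.164 CPM. The order runs from shEmpty through shBAP1 to shPRAME, and no interval overlaps another. PCSK2 was at least 57.2-fold lower in shPRAME than in shEmpty as a point ratio to the floor, with an interval from 46.1-fold. It was 2.25-fold lower in shBAP1 (1.67 to 3.05). PCSK1 (chromosome 5), the convertase of the early secretory granule, had 0 counts in shEmpty, 12 in shBAP1 and 18 in shPRAME. The shBAP1 level was 0.808 CPM (0.418 to 1.41) and the shPRAME level 0.985 CPM (0.583 to 1.56), and these ranges overlap. Both lie above the floor of shEmpty, by at least 5.05-fold and at least 6.15-fold as point ratios, with intervals from 3.51-fold and 4.51-fold. The library with abundant NTS thus held PCSK1 at under 2 CPM and no PCSK2 count.

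The other convertases were more abundant. FURIN, which cleaves many growth factor precursors in the Golgi, had 2855 counts in shEmpty, 2027 in shBAP1 and 5288 in shPRAME. Its ratio in shPRAME was 1.90-fold upward (1.81 to 1.99), which passed 2-fold only with upper-quartile scaling (log2 1.01). PCSK6, which processes TGF-beta family precursors, was 6.72-fold lower in shPRAME (5.6 to 8.10). PCSK5 was 2.19-fold lower in shBAP1 (1.93 to 2.48). Of the 6 measured genes of the family of 9, which includes PCSK2, 2 were lower and 4 neither in each comparison with shEmpty. Their median log2 ratio was 0.22 in shPRAME, beside -0.06 for all measured genes. In shBAP1 it was -0.07 beside -0.03, and changed sign with total-count scaling.

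Genes of granule assembly and peptide trimming were mostly scarce. Of 20 such genes 6 were measured, of which 2 were higher and 4 neither in shPRAME, and 1 was lower and 5 neither in shBAP1. The median log2 ratios were 0.30 and -0.44. VGF, a granule protein and peptide precursor, was 3.77-fold higher in shPRAME (3.55 to 4.0), and PAM, which amidates peptides, was 2.64-fold higher (2.54 to 2.75). CADPS, which primes dense-core granules, was 2.67-fold lower in shBAP1 (2.04 to 3.54). CPE, the carboxypeptidase of the pathway, had 13 counts in shEmpty, 2 in shBAP1 and 110 in shPRAME, and the granule protein gene PTPRN had 3, 6 and 88. Both had most counts in shPRAME and both fell below the count minimum. SCG5, the chaperone that PCSK2 needs for activity, had 6 to 10 counts, and the granule cargo CHGA had 0 to 5.

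Other peptide precursors showed both patterns. Of 55 precursor genes other than NTS, 9 were measured. In shPRAME 3 were higher, 1 lower and 5 neither (median log2 0.16), and in shBAP1 none was higher, 5 were lower and 4 neither (median log2 -1.57). EDN3, the endothelin of melanocyte development, had 20 counts in shEmpty, 4 in shBAP1 and 1357 in shPRAME. It was 69.5-fold higher in shPRAME (44.8 to 114) and 3.96-fold lower in shBAP1 (1.33 to 15.9), so it too had most counts in shPRAME and fewest in shBAP1. STC1, the glycoprotein hormone stanniocalcin, was 7.73-fold higher in shPRAME (7.27 to 8.24) and 37.3-fold lower in shBAP1 (24.9 to 58.4). PTHLH, the parathyroid hormone-related protein, was 12.5-fold higher in shPRAME (8.15 to 20.0). TAC1, the precursor of substance P, had 10225 counts in shEmpty, 1133 in shBAP1 and 14977 in shPRAME. It was 7.15-fold lower in shBAP1 (6.72 to 7.61) and within 2-fold in shPRAME, so a tachykinin precursor was abundant in the control population itself. ADM2 was 32.6-fold lower in shBAP1 (15.6 to 81.8). NPPC, the C-type natriuretic peptide, was lower in both, 3.16-fold in shPRAME (2.17 to 4.71) and 2.97-fold in shBAP1 (2.0 to 4.54).

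NPTX1 (chromosome 17) was far lower in both knockdown libraries. It had 1084 counts in shEmpty, 16 in shBAP1 and 14 in shPRAME. The levels were 57.9 CPM (54.5 to 61.4), 1.08 CPM (0.616 to 1.75) and 0.766 CPM (0.419 to 1.28). The knockdown libraries overlap, and both lie far below the control. NPTX1 was 75.6-fold lower in shPRAME (44.8 to 139) and 53.7-fold lower in shBAP1 (32.9 to 94.3), and these comparisons share the shEmpty library. Its relatives were few. NPTX2 had 7 to 18 counts, and NPTXR, the membrane-bound pentraxin receptor, had 884 counts in shEmpty, 292 in shBAP1 and 1297 in shPRAME. NPTXR was 2.40-fold lower in shBAP1 (2.10 to 2.75), and it was the only measured gene in a list of 10 pentraxins and AMPA receptor subunits. GRIA2, an AMPA receptor subunit below the count minimum, had 7, 74 and 28 counts.

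GAP43 (chromosome 3) went in opposite directions in the knockdown libraries. It had 106 counts in shEmpty, 36 in shBAP1 and 1601 in shPRAME. Levels were 5.66 CPM (4.63 to 6.84), 2.42 CPM (1.70 to 3.36) and 87.6 CPM (83.3 to 92.0), with no overlap. GAP43 was 15.5-fold higher in shPRAME (12.7 to 19) and 2.33-fold lower in shBAP1 (1.58 to 3.51). The second of these lay within the 2-fold limit once 1 CPM was added to each side (log2 -0.96).

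Among 22 other growth cone and axon growth genes, 13 were measured. In shPRAME 2 were higher and 11 neither (median log2 0.25). STMN2, which regulates microtubules in growth cones, had 1 count in shEmpty, 3 in shBAP1 and 751 in shPRAME, a ratio of 769.6-fold upward (138 to 30439). MAP1B, a microtubule-associated protein of growing axons, was 5.08-fold higher (4.88 to 5.29). The membrane protein MARCKS, a relative of GAP43 in function, stood just under the limit at 1.98-fold upward (1.91 to 2.06) and passed it under the other 3 scalings. In all 2 to 5 genes of the list were higher in shPRAME over the 4 scalings. In shBAP1 1 was higher, 4 were lower and 8 neither (median log2 -0.57). L1CAM, an axonal adhesion molecule, was 40.0-fold higher there (31.4 to 51.7), with 68, 2153 and 79 counts in shEmpty, shBAP1 and shPRAME. STMN3 was 7.72-fold lower (6.28 to 9.59), DPYSL2, the collapsin response mediator, 6.40-fold lower (5.86 to 7.0) and NRGN (neurogranin) 4.63-fold lower (3.73 to 5.81). The lower call of TUBB3 in shBAP1 ended with total-count and upper-quartile scaling.

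SYT1 (chromosome 12) was the member with most counts in shEmpty after NPTX1. It had 970 counts in shEmpty, 144 in shBAP1 and 2685 in shPRAME. Levels were 51.8 CPM (48.6 to 55.1), 9.70 CPM (8.18 to 11.4) and 147 CPM (141 to 153). The 3 libraries are separate, with shBAP1 lowest and shPRAME highest, the same order as GAP43. SYT1 was 2.84-fold higher in shPRAME (2.63 to 3.06) and 5.34-fold lower in shBAP1 (4.48 to 6.40). The first ratio is the smallest of the members called in shPRAME and did not reach a 3-fold limit.

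Of 24 further genes of the synaptotagmin family and its relatives 8 were measured. In shPRAME 4 were higher, 1 lower and 3 neither (median log2 1.21). SYT12 had 2 counts in shEmpty, 0 in shBAP1 and 347 in shPRAME, a ratio of 178-fold upward (48.9 to 1474). SYT15 was 4.29-fold (3.12 to 6.01), SYTL4, a granule tether of the RAB27 pathway, 3.48-fold (2.57 to 4.77) and SYTL5 3.33-fold higher (3.15 to 3.54). SYTL2 was 4.82-fold lower (3.28 to 7.28). In shBAP1 2 were higher, 2 lower and 4 neither (median log2 0.38). SYTL5 was 2.84-fold lower there (2.55 to 3.18), SYT14 2.39-fold lower (1.86 to 3.09), SYTL2 2.37-fold higher (1.95 to 2.90) and SYTL4 2.10-fold higher (1.49 to 2.97). SYT5 had 3, 10 and 72 counts and SYT13 0, 2 and 60 in shEmpty, shBAP1 and shPRAME, below the count minimum.

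Most measured genes of a general list of synaptic vesicle and exocytosis machinery, not limited to partners of SYT1, were neither higher nor lower. Of all measured genes 10.2% were higher and 9.08% lower in shPRAME, and 5.53% and 8.56% in shBAP1. Of 50 genes 32 were measured, with 6 higher, 3 lower and 23 neither in shPRAME (median log2 0.06) and 4 higher, 5 lower and 23 neither in shBAP1 (median log2 0.05). Over the 4 scalings 6 to 8 were higher in shPRAME, and 4 to 6 were higher and 4 to 5 lower in shBAP1. RAB3B, a GTPase of secretory vesicles, had 11 counts in shEmpty, 34 in shBAP1 and 554 in shPRAME, 51.6-fold higher in shPRAME (28.6 to 104). STX1A, the syntaxin that binds SYT1, was 3.33-fold higher (2.88 to 3.85), while STXBP6 was 10.4-fold lower (7.84 to 14.1) and the vesicle protein SV2C 5.85-fold lower (2.61 to 15.4). In shBAP1, UNC13A, which primes vesicles for release, fell to 35 counts from 1171, 26.5-fold lower (19 to 38.2). PCLO, a scaffold of the active zone, was 31.3-fold higher (26.4 to 37.3), RIMS2 9.62-fold lower (4.47 to 24.7) and SV2C 4.30-fold higher (3.03 to 6.22). SNAP25, the neuronal partner of syntaxin, had 19 to 39 counts, whereas its widely expressed relative SNAP23 had 1151 to 1880.

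NCALD (chromosome 8) was higher in both knockdown libraries, the only measured member that was. It had 2 counts in shEmpty, 138 in shBAP1 and 242 in shPRAME. Levels were 0.107 CPM (0.0129 to 0.386), 9.30 CPM (7.81 to 11.0) and 13.2 CPM (11.6 to 15.0). The knockdown libraries are close to each other and both lie far above the control. The ratio was 124-fold upward in shPRAME (34.0 to 1029.8) and 87.1-fold upward in shBAP1 (23.7 to 726), both against the same 2 counts. Among 15 other genes of calcium-binding sensor proteins, 4 were measured. None passed in shPRAME (median log2 0.00, whose sign changed with the scaling), although HPCAL1 was higher with upper-quartile scaling, and 1 was lower in shBAP1 (median log2 -0.59). That gene was VSNL1, visinin-like 1, with 201 counts in shEmpty, 12 in shBAP1 and 276 in shPRAME, 13.3-fold lower in shBAP1 (7.43 to 26.1). CALB2, the calcium buffer calretinin, had 0, 58 and 41 counts and was below the minimum. CALB2 therefore had its counts in the same 2 libraries as NCALD.

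DOK5 (chromosome 20) was abundant in shPRAME alone. It had 0 counts in shEmpty, 2 in shBAP1 and 542 in shPRAME, where the level was 29.6 CPM (27.2 to 32.2). It was at least 185-fold higher in shPRAME than in shEmpty as a point ratio to the floor, with an interval from 150-fold. With 0 and 2 counts, shEmpty and shBAP1 were both at or under the floor and no ratio is given. Of 21 other DOK genes, related adaptors and kinase partners 12 were measured. FRS3, an adaptor of fibroblast growth factor and neurotrophin receptors, was 2.91-fold higher in shPRAME (2.0 to 4.33), and the other 11 passed in neither direction (median log2 0.06). In shBAP1 IRS1, the insulin receptor substrate, was 2.69-fold higher (2.23 to 3.25) and the other 11 passed in neither direction (median log2 0.14), although GAB1 passed with total-count and upper-quartile scaling. Of its closest relatives, DOK4 had 299 to 635 counts, and DOK6 had 0 in shEmpty, 0 in shBAP1 and 3 in shPRAME. DOK1 had 208 to 378 counts. RET had 0 to 1 counts, NTRK2 none and NTRK3 1 to 7.

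**Figure D3:**
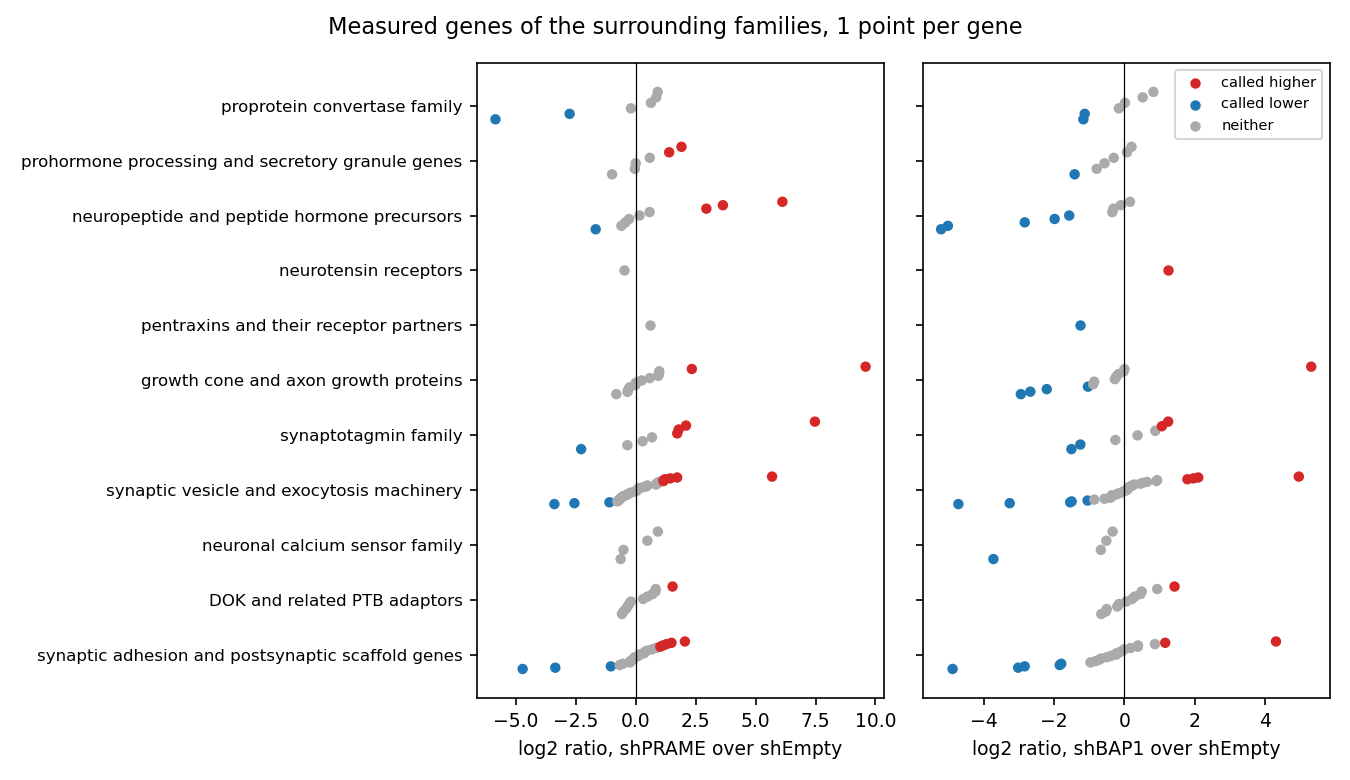
log2 ratio of each measured gene of the surrounding families in shPRAME (left) and shBAP1 (right) against shEmpty, 1 point per gene with an arbitrary vertical offset; the panels have different horizontal ranges and share the control. Red points were called higher and blue points lower. In shPRAME 4 of 8 synaptotagmin-related genes are red, where 10.2% of all measured genes were called higher. In shBAP1 5 of 9 peptide precursors are blue, where 8.56% of all measured genes were called lower.

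Set directly against each other, the knockdown libraries differed in 5 of the 7 measured members, in a comparison in which 25.1% of measured genes were called. NTS was 3980.3-fold higher in shPRAME than in shBAP1 (714 to 157244), on 1 count in shBAP1. DOK5 was 220.0-fold higher (60.6 to 1822) on 2 counts, GAP43 36.1-fold (26.0 to 51.7) and SYT1 15.1-fold higher (12.8 to 18.0). PCSK2 was at least 25.5-fold lower in shPRAME as a point ratio to the floor, with an interval from 20.1-fold. NCALD at 1.42-fold upward (1.15 to 1.77) and NPTX1 at 1.41-fold downward (0.644 to 3.11) passed in neither direction. These are the members on which both libraries depart from shEmpty to a like extent.

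By their calls against shEmpty the members fall into 4 groups. NCALD was higher in both, as were 2.34% of measured genes. NPTX1 and PCSK2 were lower in both (1.56% of measured genes), although PCSK2 passed only narrowly in shBAP1. GAP43 and SYT1 were higher in shPRAME and lower in shBAP1 (1.95%), and NTS and DOK5 were higher in shPRAME alone (5.96%). The lower call of GAP43 in shBAP1 was also narrow, and it was lost once 1 CPM was added. Both comparisons use the same control library, so a high or low count in shEmpty moves both ratios together.

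**Figure D4:**
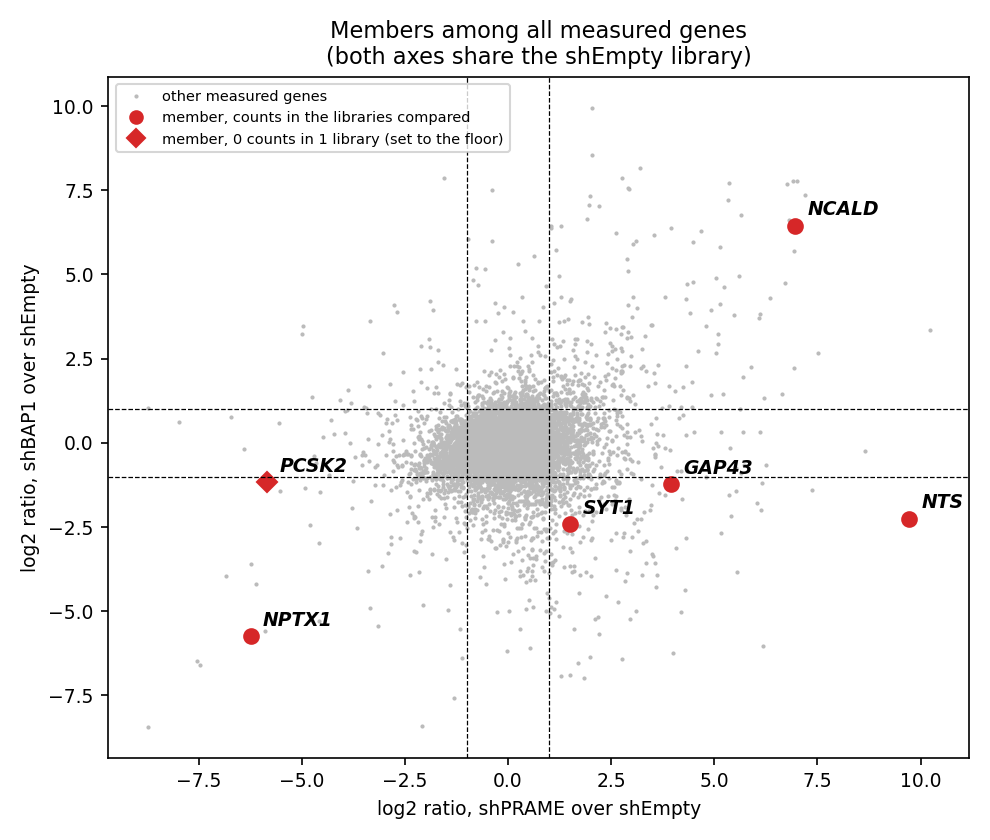
log2 ratios of all measured genes in shPRAME (horizontal) and shBAP1 (vertical) against shEmpty, with 6 members in red and dashed lines at 2-fold. NTS lies at 9.71 and NPTX1 at -6.24 on the horizontal axis; PCSK2 (diamond) is at its bound, and PCSK1 and DOK5 are not drawn because PCSK1 is below the count minimum and DOK5 has no shBAP1 ratio.

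Compared per kilobase of exon, the order of the members differed between libraries. In shEmpty NPTX1 (11.3 CPM per kb, 10.6 to 12.0) and SYT1 (9.68, 9.08 to 10.3) led, followed by GAP43 (2.71) and PCSK2 (1.87). NPTX1 and SYT1 overlap when the longest transcript is taken as the length (11.3 and 10.8 CPM per kb). In shBAP1 NCALD (2.22 CPM per kb, 1.86 to 2.62) and SYT1 (1.81, 1.53 to 2.13) were highest with overlapping ranges, and no member exceeded 3 CPM per kb. In shPRAME NTS led with 216 CPM per kb (210.4 to 223), ahead of GAP43 (42.0), SYT1 (27.5), DOK5 (15.1) and NCALD (3.15), and these 5 ranges are separate. PCSK1 (0.191 CPM per kb, 0.113 to 0.301) and NPTX1 (0.149, 0.0817 to 0.251) overlap at the low end. For scale, PRAME itself was at 35.9 CPM per kb in shPRAME, below NTS and GAP43, and at 109 in shEmpty, above all members.

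Of 18 markers of neurons and neuroendocrine cells 4 were measured, too few to say whether such markers changed. None was called in shPRAME, where 10.2% of all measured genes were called higher and 9.08% lower. In shBAP1 NEFL was higher and TUBB3 and ENO2 were lower, where the shares were 5.53% higher and 8.56% lower. The summed level of the 18 markers was 363 CPM in shEmpty, 173 in shBAP1 and 274 in shPRAME. Most of it came from TUBB3 and ENO2. TUBB3 had 1694 to 4389 counts, ENO2 552 to 2209, MAP2 57 to 124 and NEFL 41 to 118. The other 14 markers of the list had 0 to 39 counts in each library, among them INSM1 with 0 to 2, RBFOX3 with 6 to 9 and SYP with 15 to 21. Of the 6 measured fibroblast markers 4 were higher and none lower in shPRAME, and 2 were higher and 2 lower in shBAP1 (FBLN1, log2 -3.31, and PDGFRA, -2.66). The summed level of the 10 markers was 77.4, 276 and 814 CPM in shEmpty, shBAP1 and shPRAME. In shBAP1 and shPRAME most of that sum was COL1A2 (119, 2529 and 12250 counts), beside 1, 3 and 23 counts of COL1A1, and THY1 was at 0 in shEmpty. The summed markers of immune, endothelial and keratinocyte cells were 86.1, 119 and 176 CPM, with CD3E and CDH5 at 0 throughout. The part of other cells in the members' ratios was not tested, and in bulk RNA fewer cells of a type and less RNA per cell cannot be told apart.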

How the data were processed

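Messenger RNA of 3 populations was sequenced, 1 library each, as paired reads of 100 bases from a directional kit, per the labels' protocols. The authors deposited whole-number read counts per gene symbol. The submitters' processing notes name hg19 (GRCh37), TopHat, Cufflinks, edgeR and FastQC. Counting tool, annotation and strand setting: not given in the sources used here. In GENCODE 29, 9 annotated genes overlap 5 members, for 4 of them on the opposite strand, and none has a row in the table, so reads from such partners may be part of a member's count.

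The counts were scaled with TMM (edgeR 4.0.16, R 4.3.3) over the 3 libraries. Ratios carry exact 95% conditional-binomial intervals, a count of 0 was set to 3 counts, and a pair of libraries both at or under 3 counts got no ratio. 3 comparisons were made. The alternatives were scaling by total count, upper quartile or DESeq2 (1.42.0), a mean count minimum of 10, of 200 or none, and a fold limit of 1.5 or 3. The whole interval was also required to lie beyond 2-fold, and 1 CPM was added before the ratio. Exon lengths and chromosomes came from GENCODE 29 (GRCh38), matched by symbol. Start-site windows came from RefSeq (GRCh38.p14). These builds differ from that of the counts and served only for lengths, names, neighbours and letters. The calling code was run on simulated Poisson counts, which hold counting error only, so that run says nothing about variation between populations. Members, gene lists and motifs were chosen with earlier results of these data known. All members are named, with up to 4 called genes of each list per comparison with shEmpty and every neurotensin receptor, while the marker lists are given mainly as sums and counts. Others, among them those given only by counts, were named after their values were seen. The sets of markers named are neuron and neuroendocrine, melanoma, fibroblast, and immune, endothelial and keratinocyte. Python 3.11.15, numpy 2.4.6, scipy 1.17.1, pandas 2.3.3 and matplotlib 3.10.9 were used.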

Additional observations from a re-analysis of the deposited data

How the results depend on the processing

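Each member called against shEmpty kept its direction and call under all 4 scalings. The closest to the limit were PCSK2 and GAP43 in shBAP1, with log2 ratios from -1.17 to -1.05 and from -1.22 to -1.10. Both lost the call at 3-fold and with the whole interval beyond 2-fold, as SYT1 did in shPRAME at 3-fold. With total-count scaling the median of all measured genes in shBAP1 shifted by 0.12 log2, and the share of calls that were higher from 39.2% to 49.8%. No paired analysis was possible because each group has 1 library.

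Counts of members and genes moved as follows, by construction of the stricter or looser rules. With a mean count of at least 200, members called higher were 3 in shPRAME (from 5) and 0 in shBAP1 (from 1), members called lower were 1 in shPRAME (from 2) and 0 in the direct comparison (from 1), and genes called higher were 700 in shPRAME and 320 in shBAP1. With at least 10, PCSK1 entered as higher in both (log2 2.62 and 2.34), members higher in shBAP1 were 2, and genes higher were 1903 and 1169. With no minimum, members higher in shBAP1 were 2, genes higher were 2301 in shPRAME, 1530 in shBAP1 and 2670 in the direct comparison, and genes lower in the last were 2057. At 1.5-fold, genes higher and lower were 2321 and 2582 in shPRAME, 1522 and 2123 in shBAP1, and 2844 and 2905 in the direct comparison. At 3-fold they were 592 and 399, 308 and 470, and 920 and 441, with 2 members lower in shBAP1 (from 4). With the whole interval beyond 2-fold, genes higher in shBAP1 were 414, members lower there 2, and genes lower in the direct comparison 868. Of 198 values of single members that an alternative could give, 188 kept their status as called or not called, 6 lost the call and 4 gained it. Count minimums, fold limits and the interval rule leave a ratio as it is. Only the scalings and the added 1 CPM could change a direction, so these counts do not measure how stable the directions are. Members under the minimum of a setting are not among these, such as NCALD, DOK5 and PCSK2 at 200, whose calls were lost there. The depth limits PCSK1, NTS in shEmpty and shBAP1, NPTX1 in both knockdown libraries and PCSK2 in shPRAME. It also limits the denominators of DOK5 and NCALD, and each of these rests on 0 to 18 counts. With 1 CPM added, log2 ratios in shPRAME moved from 9.71 to 7.67 for NTS and from 7.53 to 4.94 for DOK5. NCALD moved from 6.95 to 3.69 there, PCSK2 from -5.84 to -3.38 and NPTX1 from -6.24 to -5.06. In shBAP1 NCALD moved from 6.44 to 3.22, and these calls stayed.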

Other observations

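Of 43 synaptic adhesion and scaffold genes 22 were measured. In shPRAME 5 were higher, 3 lower and 14 neither (median log2 0.13), where 10.2% of all measured genes were higher and 9.08% lower. In shBAP1 2 were higher, 5 lower and 15 neither (median log2 -0.31), where the shares were 5.53% higher and 8.56% lower. DLG3 was 4.16-fold higher in shPRAME (3.62 to 4.79) and DLG4, the postsynaptic scaffold PSD-95, 2.82-fold higher (2.52 to 3.17). LGI3 was 26.1-fold lower there (9.90 to 97.5). CBLN1, a secreted synapse organiser that like NPTX1 bridges neurons from outside, had 20 CPM in shEmpty, 0.674 in shBAP1 and 1.97 in shPRAME. It was 29.7-fold lower in shBAP1 (16 to 62.5) and 10.2-fold lower in shPRAME (7.21 to 14.7). SLITRK6 was 19.9-fold higher in shBAP1 (13.1 to 31.8), and NRXN2 (neurexin 2) 7.16-fold (4.77 to 11.2) and LGI2 8.14-fold lower (4.38 to 16.8). The call of LGI2 in shPRAME ended with total-count and upper-quartile scaling.

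Nearest patterns were sought among 11857 measured genes with more than 3 counts in every library, by distance in the plane of the 2 log2 ratios against shEmpty, which rests on 3 libraries. For SYT1 the nearest were NKILA (distance 0.09) and ASTN2, a neuronal migration gene (0.12, with 953, 154 and 2635 counts in shEmpty, shBAP1 and shPRAME), and 20 genes lay within 0.5. For GAP43 they were MYO7A (0.37) and TMEM59L (0.40), with 5 genes within 0.5. NPTX1 had none within 1 among these genes, and the nearest were NELL1 (1.49) and NSG1, a neuronal endosomal protein (1.56, with 855, 37 and 12 counts). Genes with 3 or fewer counts in a library were left out, so one that dropped that far in a knockdown library could not be found. For the same reason NTS, PCSK1, PCSK2, NCALD and DOK5 got no nearest gene.

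Genes beside the members were looked at after the data were seen, taking the 2 protein-coding genes on each side in RefSeq order that have a row in the table. Of 32 such neighbours 21 were measured. In shPRAME none was higher, 3 were lower and 18 neither, where 10.2% of all measured genes were higher and 9.08% lower. In shBAP1 1 was higher, 3 were lower and 17 neither, where the shares were 5.53% higher and 8.56% lower. Nothing is read from these counts. Both genes flanking NTS on chromosome 12 had most counts in shPRAME, although too few to be measured. RASSF9 had 0 counts in shEmpty, 2 in shBAP1 and 36 in shPRAME, at least 12.3-fold higher as a point ratio to the floor (interval from 9.50). MGAT4C had 1, 3 and 34, a ratio of 34.8-fold upward (5.85 to 1416). ALX1, the next gene on from RASSF9, had 1899, 358 and 1945 counts. LSAMP, beside GAP43, went the other way from it, with 358 counts in shEmpty, 792 in shBAP1 and 107 in shPRAME. NAV3, beside SYT1, had 555, 363 and 47.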
